A study of Homo sapiens with 19 samples.

Results

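NT5E encodes CD73, an ectonucleotidase held on the outer cell surface by a lipid anchor. The gene was followed through 1 transcript, ENST00000257770.7, which is 3548 bases long and is 1 of the 175775 transcripts in each of 17 poly(A) RNA-seq libraries. The transcript was chosen by its measured read counts over the 6 groups and in every comparison, so its levels and fold changes are given as a description with their errors, and no p-value is given for it.

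CD73 removes the phosphate from extracellular AMP and so makes adenosine. It works downstream of CD39, which breaks ATP and ADP down to AMP, and upstream of the adenosine receptors. Adenosine acting on these receptors restrains T cells and natural killer cells, and CD73 is known for its high level in many triple-negative breast cancers and cell lines. STAT3 is a transcription factor activated by JAK kinases downstream of cytokine receptors, and HMGN5, of the high mobility group N proteins, binds nucleosomes and loosens chromatin.

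All libraries came from MDA-MB-231, an established human line of triple-negative breast cancer, and all cells were transfected with siRNA at 30 nM. In the siRNA experiment, cells received STAT3 siRNA (siSTAT3, 2 libraries), HMGN5 siRNA (siHMGN5, 2 libraries) or control siRNA (NC, 4 libraries), without infection. In the lentiviral experiment, cells received STAT3 siRNA and a lentivirus carrying HMGN5 (siSTAT3_HMGN5, 3 libraries), STAT3 siRNA and the empty lentiviral vector (siSTAT3_Vec, 3 libraries) or control siRNA and the empty vector (NC_Vec, 3 libraries). The study asked what depletion of either protein does to the transcriptome and what added HMGN5 does in STAT3-depleted cells. The labels name no siRNA sequence and do not say whether replicates were separate cultures, so the spread between them may be technical.

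Libraries ranged in depth between 19114033 and 19509422 estimated reads in the siRNA experiment and between 22500086 and 23047081 in the lentiviral one. Transcript IDs are not paired with gene names in the sources used here. The depth of the STAT3 and HMGN5 knockdowns and the level of HMGN5 after lentiviral infection were therefore not looked up. Nor were the markers of the cell line, the other genes of the adenosine pathway and any further NT5E transcripts. Earlier work on these data found that the NC group held 2 pairs of libraries that stood apart. Differences within the pairs were not computed here for comparison. Between replicates 3 and 4 and replicates 1 and 2, the median absolute log2 difference was 0.312 over 15813 transcripts that averaged 10 CPM or more (CPM, counts scaled to library size, with library sizes adjusted by TMM within each experiment). NT5E differed between these pairs by 0.009 on the same scale, and 1.8% of those transcripts differed by less.

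NT5E lies on chromosome 6, at 85450083 to 85495784 of GRCh38.p14, on the plus strand, and RefSeq lists 2 transcripts for it. Its RefSeq promoter, chr6:85449833-85450132, is shown because the siRNAs target a transcription factor and a chromatin protein. The window runs from 250 bases before the RefSeq start to 50 after it, and the start of the listed transcript may differ. Capitals mark TGACGT, the core of the cyclic AMP response element, and the GC box that SP1 binds, which reads CCGCCC here and GGGCGG on the other strand.
NT5E promoter: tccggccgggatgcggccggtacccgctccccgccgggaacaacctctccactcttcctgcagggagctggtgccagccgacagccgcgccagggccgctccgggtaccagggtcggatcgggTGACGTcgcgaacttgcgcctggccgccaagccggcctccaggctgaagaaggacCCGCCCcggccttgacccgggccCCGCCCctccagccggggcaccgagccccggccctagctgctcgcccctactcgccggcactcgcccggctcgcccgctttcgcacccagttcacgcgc
The window is 75% G and C, against a median of 58.7% over 35116 RefSeq promoters of the same length, and it holds 37 CpG dinucleotides, against a median of 14. TGACGT begins at base -127 from the start and is found on either strand in 7.98% of all these promoters. The 2 GC boxes begin at -72 and -49, and 45% of the promoters hold at least 1. The STAT motif TTCNNNGAA is not in these 300 bases and is in 7.66% of promoters. The full cyclic AMP element TGACGTCA (1.85% of promoters), ACGTG, the core of the hypoxia response element (21.4%), and the AP-1 motif TGANTCA (7.71%) were not found on either strand of the window. Motifs were matched by their letters alone. The TGACGT match overlaps neither GC box.

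NT5E was highest in the control libraries of both experiments and lowest wherever STAT3 siRNA had been given. In siSTAT3 the 2 libraries had 2090 and 2059 estimated reads, or 111 and 110 CPM. In siHMGN5 the 2 libraries had 8894 and 8471 estimated reads, or 447 and 436 CPM. The 4 NC libraries had 23412, 23850, 23417 and 23157 estimated reads, or 1190, 1244, 1235 and 1214 CPM. The 3 groups of the siRNA experiment thus did not overlap, and each lay several-fold from the next. Taken pair by pair, 14.3% to 27% of the transcripts tested were apart in the same direction. The share with all 3 groups apart was not counted.

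In the lentiviral experiment the 3 siSTAT3_HMGN5 libraries had 4603, 4908 and 5155 estimated reads, or 206, 215 and 226 CPM. The 3 siSTAT3_Vec libraries had 6841, 6472 and 7158 estimated reads, or 302, 286 and 314 CPM. The 3 NC_Vec libraries had 30836, 30146 and 29034 estimated reads, or 1415, 1319 and 1288 CPM. These groups did not overlap either, and siSTAT3_HMGN5 lay below siSTAT3_Vec, the farther of these from the control. Pair by pair, 13.3% to 21.9% of the transcripts tested were apart in the same direction. In bulk RNA, fewer cells with the transcript and less of it per cell cannot be told apart.

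**Figure D1:**
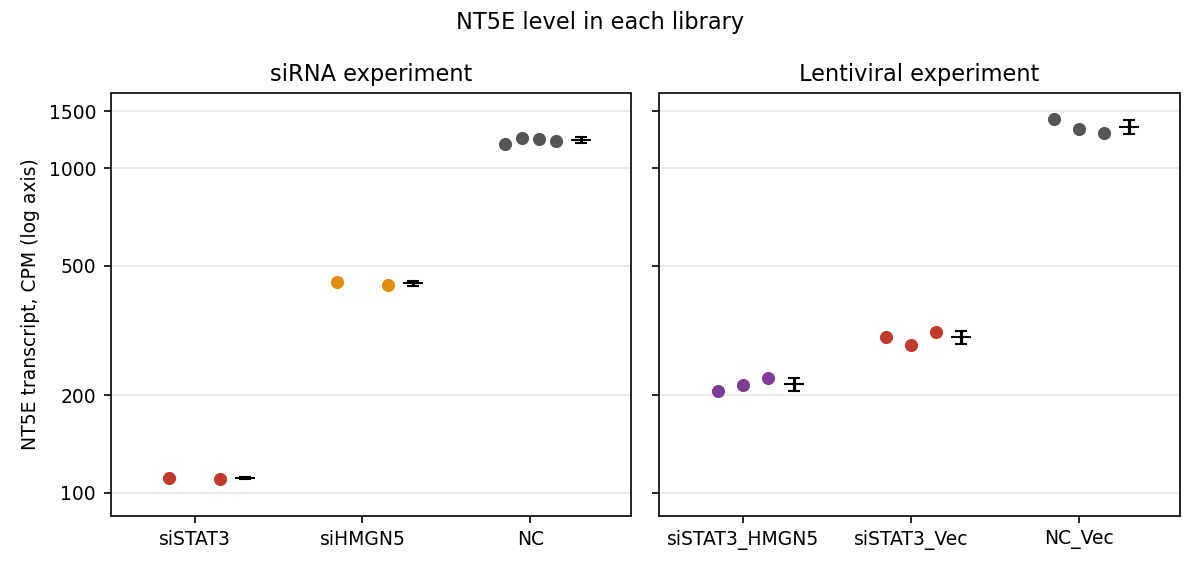
Level of the NT5E transcript in each library, in CPM on a log axis, for the siRNA experiment (left) and the lentiviral experiment (right). Points are libraries, and the mark beside them is the group mean with its SD. The siSTAT3 libraries sit at 110 and 111 CPM and the NC libraries at 1190 to 1244 CPM. No 2 groups of an experiment overlap, and pair by pair 13.3% to 27% of the transcripts tested were apart in the same direction.

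On the deposited TPM scale, which is per effective length, NT5E averaged 16 ± 0.328 TPM in siSTAT3 (SD, n = 2), 66.2 ± 4.62 TPM in siHMGN5 (SD, n = 2) and 205 ± 2.3 TPM in NC (SD, n = 4). It averaged 33.6 ± 2.85 TPM in siSTAT3_HMGN5, 46.7 ± 2.09 TPM in siSTAT3_Vec and 210 ± 5.46 TPM in NC_Vec (SD, n = 3 each). In the control libraries of both experiments its TPM was above that of 99.7% of the listed transcripts. It was above 96.6% to 96.7% of them in siSTAT3, 99.1% to 99.2% in siHMGN5, 98% to 98.2% in siSTAT3_HMGN5 and 98.6% to 98.7% in siSTAT3_Vec. NT5E therefore stayed among the more abundant of the listed transcripts in every group. Many listed transcripts had no read, and 81669 to 86087 had at least 1 estimated read in each library. By estimated reads, NT5E ranked 34 to 36 in the NC libraries and 1222 and 1229 in the siSTAT3 libraries.

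The order of the 6 groups, from low to high, was siSTAT3, siSTAT3_HMGN5, siSTAT3_Vec, siHMGN5, NC and NC_Vec. With all 17 libraries on 1 TMM scale the means were 108 ± 0.743, 218 ± 10.2, 304 ± 14.2, 428 ± 6, 1208 ± 28.7 and 1356 ± 67.5 CPM in that order (SD, n = 2, 3, 3, 2, 4 and 3). Among neighbours from 1 experiment, siSTAT3_HMGN5 did not overlap siSTAT3_Vec, and siHMGN5 did not overlap NC. With scaling within each experiment, the same held in the same direction for 13.3% and 14.3% of the transcripts tested. For neighbours from different experiments no such share was counted, so their separation is not read here. NC_Vec and NC were the closest neighbours, with NC_Vec 1.12-fold higher, and infection and experiment cannot be told apart in that difference. In TPM the order was the same, but NC and NC_Vec differed by less than the SD of NC_Vec. NT5E averaged 210 ± 5.46 TPM in NC_Vec and 205 ± 2.3 TPM in NC. The libraries of these groups overlapped on that scale, at 203 to 209 TPM in NC and 207 to 216 TPM in NC_Vec.

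Replicates of NT5E lay close together. The CV of its CPM was 0.653% in siSTAT3, 1.88% in siHMGN5 and 1.96% in NC, and 4.64% in siSTAT3_HMGN5, 4.77% in siSTAT3_Vec and 4.93% in NC_Vec. Counting error alone gives a CV of 2.2% in siSTAT3, 1.07% in siHMGN5, 0.653% in NC, 1.43% in siSTAT3_HMGN5, 1.21% in siSTAT3_Vec and 0.577% in NC_Vec. The spread thus exceeded counting error in every group other than siSTAT3. In siSTAT3 and siHMGN5, 2 libraries give a poor estimate of it. The spread also depended on the scaling. By total reads the level was 453 ± 17.7 CPM in siHMGN5 and 1321 ± 31 CPM in NC_Vec, against 442 ± 8.31 and 1340 ± 66 CPM with TMM (SD). Among transcripts of at least 10 CPM, the share that varied less than NT5E was 5.6% in siSTAT3, 14.1% in siHMGN5 and 0.4% in NC, and 23.1% in siSTAT3_HMGN5, 25.9% in siSTAT3_Vec and 18.6% in NC_Vec. The median CV of these transcripts was 17.7% in NC, the group of the 2 pairs named above, and 6.9% to 10.0% in the other groups. The estimated reads of NT5E were not whole in any library (tolerance 0.0015), so some of its reads were shared with other transcripts by the quantification model.

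With STAT3 siRNA and no vector, NT5E was 11-fold lower in siSTAT3 than in NC. It averaged 111 ± 0.722 CPM in siSTAT3 (SD, n = 2) and 1221 ± 24 CPM in NC (SD, n = 4), a log2 fold change of -3.46 ± 0.07 (SE, edgeR quasi-likelihood fit). The level in siSTAT3 was 9.06% of that in NC, and the 8 pairs of 1 siSTAT3 and 1 NC library gave folds of 10.7 to 11.3. Every siSTAT3 library was lower than every NC library, which held for 14.3% of the 74346 transcripts tested. The log2 fold change was -3.46 with NC replicates 1 and 2 as the only controls and -3.49 with NC replicates 3 and 4.

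Of the 15813 transcripts that averaged 10 CPM or more in the siRNA experiment, 61 (0.386%) had a more negative log2 fold change in siSTAT3 against NC than NT5E. Of those 61, 43 lay below -6, far from the bulk of the distribution. Values below -6 were found in every comparison, for 11 to 44 transcripts of at least 10 CPM. Among the 108 transcripts that averaged 500 CPM or more over the same libraries, none had a more negative value than NT5E, and their median was -0.11. NT5E passed that limit only through NC, at 1221 CPM, beside 442 CPM in siHMGN5 and 111 CPM in siSTAT3. Its place among these 108 thus follows in part from how they were picked. The median over the transcripts of at least 10 CPM was -0.08.

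With HMGN5 siRNA, NT5E was 2.76-fold lower in siHMGN5 than in NC. It averaged 442 ± 8.31 CPM in siHMGN5 (SD, n = 2) and 1221 ± 24 CPM in NC (SD, n = 4), a log2 fold change of -1.47 ± 0.06 (SE). The level was 36.2% of that in NC, and the 8 library pairs gave folds of 2.66 to 2.85. Every siHMGN5 library was lower than every NC library, as for 14.3% of the transcripts tested. With NC replicates 1 and 2 as the only controls it was -1.46, and with NC replicates 3 and 4 it was -1.47. A more negative value was found for 574 (3.63%) of the transcripts of at least 10 CPM and for 4 of the 108 of at least 500 CPM. NT5E is among those 108 only through its level in NC, so its place there follows in part from how they were picked.

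The 2 knockdowns differed in the level of NT5E that remained. It averaged 111 ± 0.722 CPM in siSTAT3 and 442 ± 8.31 CPM in siHMGN5 (SD, n = 2 each), so that siSTAT3 lay 3.99-fold below siHMGN5 (log2 fold change -2.0 ± 0.06, SE). Each siSTAT3 library lay below each siHMGN5 library, which was so for 27% of transcripts, and the 4 library pairs gave folds of 3.92 to 4.06. Both knockdowns were compared with the same NC libraries, so their values against NC are not independent of each other.

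In cells carrying the empty vector, STAT3 siRNA again went with a lower NT5E level, by 4.46-fold. It averaged 301 ± 14.3 CPM in siSTAT3_Vec and 1340 ± 66 CPM in NC_Vec (SD, n = 3 each), a log2 fold change of -2.16 ± 0.06 (SE). The level was 22.4% of that in NC_Vec, and the 9 library pairs gave folds of 4.1 to 4.95. Every siSTAT3_Vec library was lower than every NC_Vec library, as for 18.4% of the 69768 transcripts tested. A more negative log2 fold change was found for 141 (0.9%) of 15664 transcripts of at least 10 CPM, and for 1 of the 140 of at least 500 CPM. NT5E is among those 140 only through its level in NC_Vec, so its place there follows in part from how they were picked.

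The distance from control differed between the experiments, which share no library. In 1 fit of all 17 libraries, the log2 fold change of NT5E with STAT3 siRNA was more negative in the siRNA experiment than in the lentiviral one by -1.33 ± 0.07 (SE), a ratio of folds of 2.51. Of 15855 transcripts averaging 10 CPM or more over the 17 libraries, 1319 (8.32%) had a more negative difference. The levels behind it were 108 ± 0.743 CPM in siSTAT3 (SD, n = 2) and 1208 ± 28.7 CPM in NC (SD, n = 4), beside 304 ± 14.2 CPM in siSTAT3_Vec and 1356 ± 67.5 CPM in NC_Vec (SD, n = 3 each). The depth of STAT3 depletion in each experiment was not measured here, and infection and experiment cannot be told apart.

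Ectopic HMGN5 in STAT3-depleted cells went with a lower, not a higher, NT5E level. It averaged 216 ± 10 CPM in siSTAT3_HMGN5 and 301 ± 14.3 CPM in siSTAT3_Vec (SD, n = 3 each), which is 1.39-fold lower (log2 fold change -0.48 ± 0.06, SE). The 9 library pairs gave folds of 1.27 to 1.53 in the same direction. Every siSTAT3_HMGN5 library was lower than every siSTAT3_Vec library, as for 13.3% of the transcripts tested. A more negative log2 fold change was found for 1743 (11.1%) of the transcripts of at least 10 CPM, so a difference of this size was less unusual than those with STAT3 siRNA in the same table.

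Against the vector control, NT5E in cells with STAT3 siRNA and HMGN5 was 6.22-fold lower. It averaged 216 ± 10 CPM in siSTAT3_HMGN5 and 1340 ± 66 CPM in NC_Vec (SD, n = 3 each), a log2 fold change of -2.64 ± 0.06 (SE). The level was 16.1% of that in NC_Vec, beside 22.4% in siSTAT3_Vec, and both shares rest on the same NC_Vec libraries. All siSTAT3_HMGN5 libraries lay below all NC_Vec libraries, which held for 21.9% of transcripts. A more negative value was found for 132 (0.843%) of the transcripts of at least 10 CPM.

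**Figure D2:**
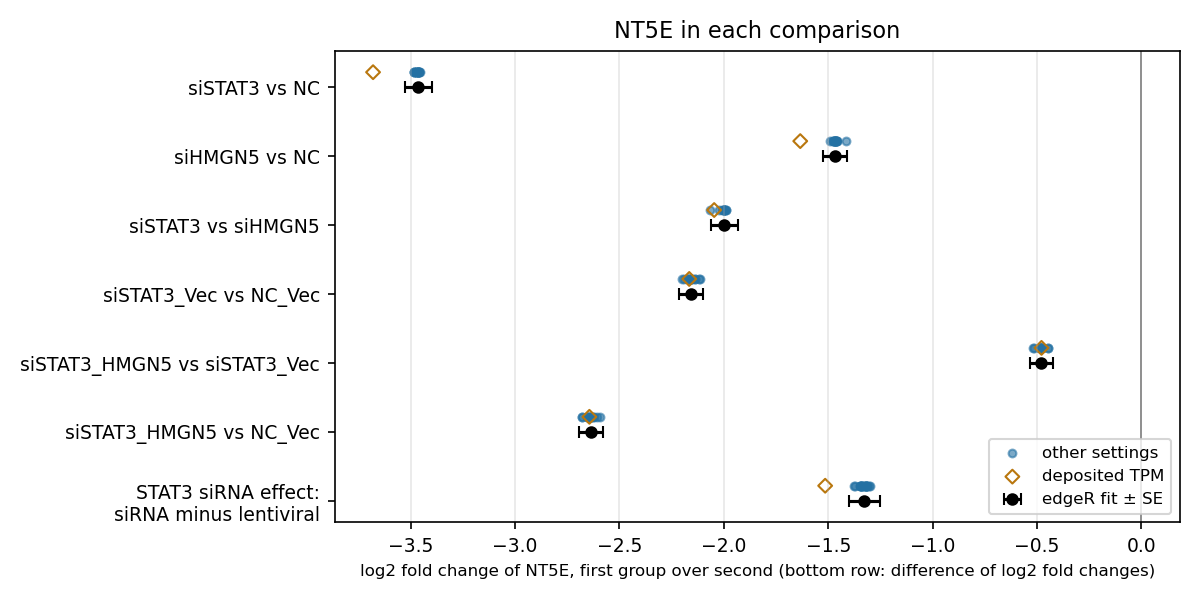
Log2 fold change of NT5E in each comparison, first group over second, and in the bottom row how much that of STAT3 siRNA differed between experiments. Black points with bars are the edgeR estimate with its SE, blue points are other settings including each library left out, and open diamonds are ratios of mean deposited TPM; all lie below 0, from -0.48 for siSTAT3_HMGN5 against siSTAT3_Vec to -3.46 for siSTAT3 against NC in the edgeR estimates.

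**Figure D3:**
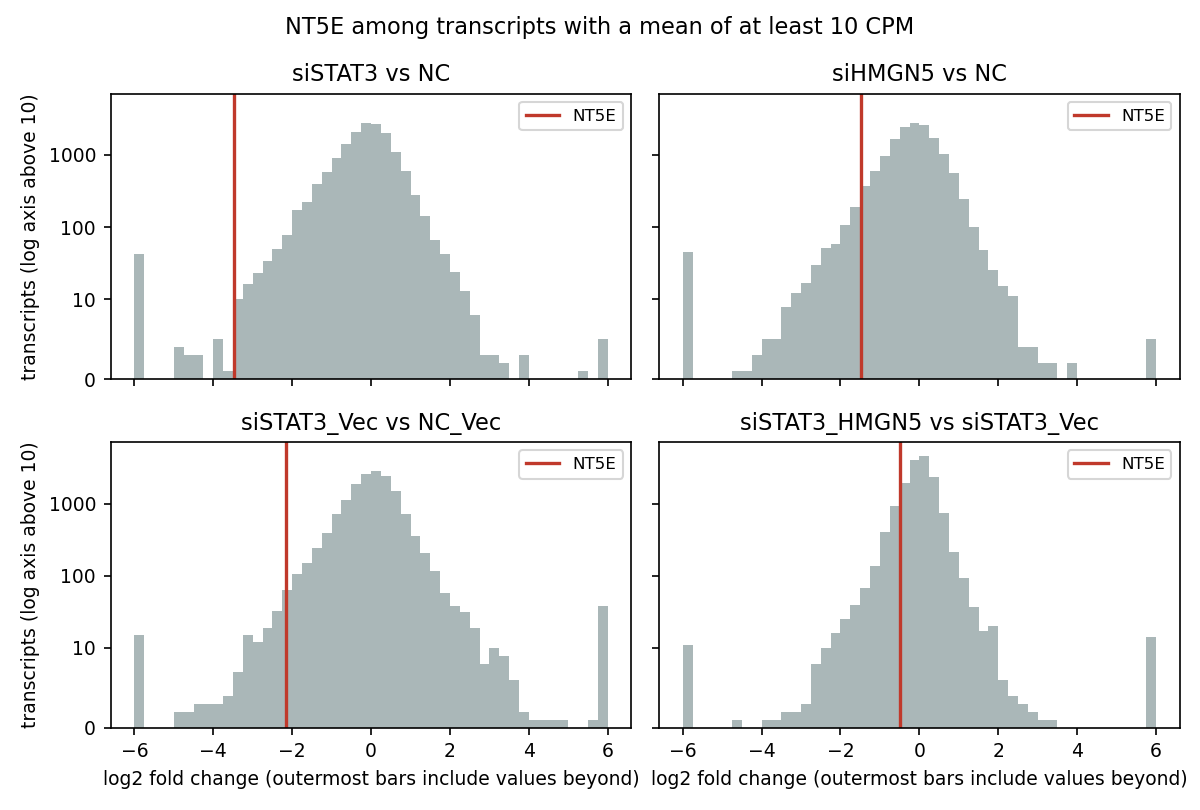
Distribution of log2 fold changes over transcripts averaging 10 CPM or more, in 4 comparisons, with the number of transcripts on an axis that is logarithmic above 10. The red line is NT5E, which lies far in the lower tail with STAT3 siRNA (-3.46 and -2.16) and nearer the centre with ectopic HMGN5 (-0.48).

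Transcripts whose levels followed NT5E most closely were sought over the 17 libraries, as the Pearson correlation of log2(CPM + 1) after each experiment was centred on its own mean. Libraries of 1 group share their treatment, so the 17 points are not independent, and the values describe likeness only. Of 15854 other transcripts averaging 10 CPM or more, 327 (2.06%) had r above 0.9 and 89 (0.561%) had r below -0.9. The 2 most alike were ENST00000556029.5 and ENST00000416334.5, each with r = 0.994. The files give neither ID a gene name, and reads can be divided between transcripts of 1 gene.

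ENST00000556029.5 had smaller steps than NT5E. It averaged 85.2 ± 1.08 CPM in siSTAT3, 185 ± 6.58 CPM in siHMGN5 and 305 ± 29 CPM in NC (SD, n = 2, 2 and 4), and 58.3 ± 2.47 CPM in siSTAT3_HMGN5, 70.7 ± 5.61 CPM in siSTAT3_Vec and 163 ± 3.41 CPM in NC_Vec (SD, n = 3 each). Unlike NT5E, its level in NC_Vec was below that in NC, and with uncentred values its r was 0.81. ENST00000416334.5 had steps closer in size to those of NT5E, in the same order within each experiment. It averaged 8.24 ± 0.802 CPM in siSTAT3, 31.1 ± 5.38 CPM in siHMGN5 and 77.9 ± 7.02 CPM in NC, and 11.6 ± 0.598 CPM in siSTAT3_HMGN5, 17.5 ± 2.72 CPM in siSTAT3_Vec and 72.5 ± 3.99 CPM in NC_Vec. Its mean in NC_Vec was also below that in NC, unlike NT5E, but by less than the SD in NC. Whether this transcript is itself an isoform of NT5E was not determined, so its likeness may be that of a gene with itself. In order of likeness among the 15854, ENST00000416334.5 was again the second with uncentred values and the 48th by rank correlation, and ENST00000556029.5 was the 408th with uncentred values and the first by rank correlation.

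The 2 transcripts with the most opposite pattern were ENST00000377658.8 (r = -0.976) and ENST00000261893.8 (r = -0.969). ENST00000377658.8 averaged 69 ± 1.47 CPM in siSTAT3, 27.3 ± 0.454 CPM in siHMGN5 and 15.9 ± 1.88 CPM in NC, and 79.3 ± 5.3 CPM in siSTAT3_HMGN5, 46.3 ± 3.28 CPM in siSTAT3_Vec and 22.4 ± 0.532 CPM in NC_Vec. Its groups stood in the mirror order of NT5E within each experiment. ENST00000261893.8 averaged 42.4 ± 4.59 CPM in siSTAT3, 20.6 ± 1.71 CPM in siHMGN5 and 14.7 ± 1.85 CPM in NC, and 55.2 ± 2.65 CPM in siSTAT3_HMGN5, 52.1 ± 2.77 CPM in siSTAT3_Vec and 20.8 ± 2 CPM in NC_Vec. Between siSTAT3_HMGN5 and siSTAT3_Vec its means differed by little more than their SDs. With uncentred values ENST00000377658.8 was the 19th most opposite (r = -0.918) and ENST00000261893.8 the 134th (r = -0.832), and by rank correlation they were the 9th and the 11th, so which transcripts are named depends on the measure of likeness.

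**Figure D4:**
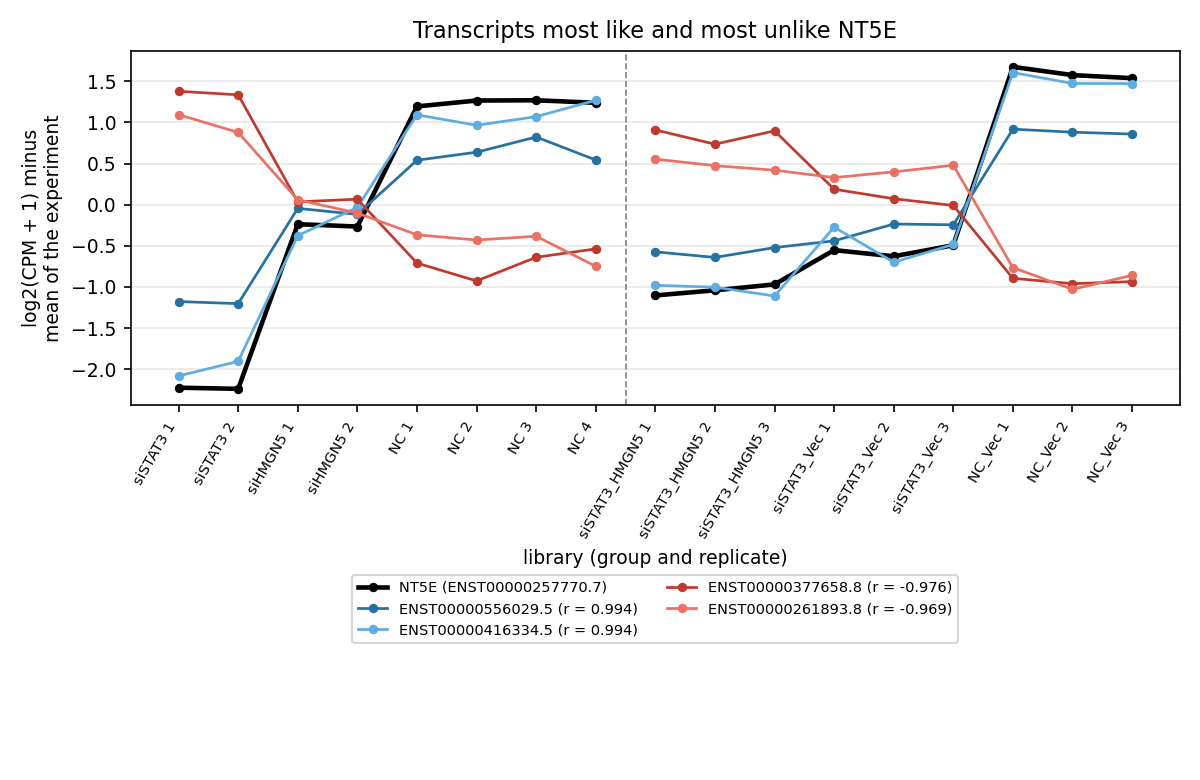
Levels of NT5E (black), of the 2 most alike transcripts (blue) and of the 2 most opposite ones (red) in each of the 17 libraries, as log2(CPM + 1) minus the mean of the experiment. The dashed line separates the siRNA experiment (left) from the lentiviral one (right); the blue lines follow NT5E with r = 0.994 and the red ones mirror it with r = -0.976 and -0.969.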

How the data were processed

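Groups and replicate numbers were taken from the sample titles. The deposited tables give, per the file headers, expected counts of reads and TPM for each Ensembl transcript. Salmon 1.4.0 appears in the submitters' processing notes, beside CASAVA, HOMER and Bowtie2 and the builds GRCh38 and hg38. The transcript release and the mapping options are not given in the sources used here. H3K27ac CUT&Tag samples (2) were not analysed here. The deposited estimated counts were rounded and fitted per transcript with edgeR 4.0.16 in R 4.3.3 (TMM, filterByExpr, estimateDisp, glmQLFit, glmQLFTest on group means), each experiment apart and once over all 17 libraries. Standard errors are the fold change over the square root of the test statistic. CPM values use TMM-scaled library sizes. DESeq2 1.42.0 and limma 3.58.1 (voom) were alternatives. The fit was also run on simulated counts with known fold changes. That run checked median fitted fold changes only, not standard errors. It held no change as large as that of NT5E in siSTAT3 against NC.

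NT5E, the pathway lists and the tests were chosen with earlier results of these data known. The lists by gene symbol (adenosine pathway, NT5E regulators, siRNA targets, cell line markers) were not run, since transcript IDs could not be paired with genes here. Named transcripts are NT5E and, at a mean of at least 10 CPM, the 2 with the highest and the 2 with the lowest correlation with it. Replicate numbers did not pair the libraries: within each experiment, deviations from group means of same-numbered libraries correlated at -0.089 to 0.052. Promoter sequences are from RefSeq (GRCh38.p14).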

Additional observations from a re-analysis of the deposited data

How the results depend on the processing

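All 7 log2 values of NT5E stayed negative under every alternative run, and 112 of 120 recomputed values moved by less than the spread between replicates. Leaving out 1 library at a time gave -3.48 to -3.46 for siSTAT3 against NC, -1.49 to -1.46 for siHMGN5 against NC, -2.02 to -1.99 for siSTAT3 against siHMGN5, -2.20 to -2.11 for siSTAT3_Vec against NC_Vec, -0.52 to -0.45 for siSTAT3_HMGN5 against siSTAT3_Vec, -2.68 to -2.60 for siSTAT3_HMGN5 against NC_Vec and -1.38 to -1.30 for the difference between experiments. Where a group was left with 1 library, that library was assumed to vary like the others. A replicate block gave -3.46, -1.46, -2.0, -2.16, -0.48, -2.64 and -1.32 in the same order. In that fit of the siRNA experiment, NC replicates 3 and 4 have no partner of the same number and add nothing to the fold changes.

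Scaling by total reads gave -1.41 for siHMGN5 against NC and -2.07 for siSTAT3 against siHMGN5, with levels of 108 CPM in siSTAT3 and 453 CPM in siHMGN5. Ratios of mean deposited TPM gave -3.68 for siSTAT3 against NC, -1.63 for siHMGN5 against NC, -2.05 for siSTAT3 against siHMGN5 and -1.51 for the difference between experiments. Transcripts under 300 bases held 43.6% to 43.8% of the TPM in siSTAT3 and 44.2% to 45.4% in siHMGN5, against 38.8% to 41% in NC, and their part in these shifts was not tested. Depth did not limit NT5E, which had at least 2059 reads in each library.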
